A study of Glycine max with 8 samples.

Results

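The sites found only with FLAG-SNAP2 are 437 regions of the soybean genome. Peaks of all 8 ChIP-seq libraries that overlapped by at least 1 bp were merged into 21575 regions, and a region was taken when it held a peak of both FLAG-SNAP2 replicates and none of the 6 libraries of the other 3 TFs. These regions were 2.03% of all regions and 9.09% of the 4806 regions with peaks of both FLAG-SNAP2 replicates. The members were thus chosen by the presence and absence of called peaks in these 8 libraries, so the number of regions and the strength of their peaks are given as descriptions. A region without a peak of another TF is one where no peak passed the threshold in those libraries, and the signal below the threshold was not analysed here.

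The study asked which genes are bound by SNAP1, SNAP2, SNAP3 and SNAP4, which are NAC TFs of soybean nodules. FLAG-SNAP2 was compared with FLAG-SNAP1, FLAG-SNAP3 and FLAG-SNAP4, with 2 biological replicates for each TF. Each coding sequence came from cultivar Williams 82, was fused to the FLAG tag and was expressed from the soybean pM4 promoter in hairy roots made with Agrobacterium tumefaciens strain K599. Root tissue with nodules was fixed, a FLAG antibody pulled down the chromatin, and the Tn5 transposase gave the recovered DNA its adapters on the beads. The sample labels call the genotypes SNAP2 mutant, SNAP1 mutant and so on, whereas the study's methods describe tagged TFs in transgenic roots. The description in the methods is used here. The tagged TF was thus not under its own promoter, hairy roots can keep their own untagged copies of the SNAP genes, and no nitrogen level is given for these roots. No library without a FLAG-tagged TF was analysed here.

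NAC proteins are a plant-specific family of TFs, many of which act in senescence, in responses to stress and abscisic acid, and in the formation of vascular cells. A NAC protein binds DNA as a dimer through its N-terminal domain, and close relatives often recognise the same core sequence, so that the sites of one member can be expected to overlap those of another. In legume nodules, NAC TFs are known above all for their part in the ageing of the nodule, when nitrogen fixation stops and its proteins are broken down. Sequences of the regions were not analysed here, since no genome of this build was used, and none are shown.

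The peak lists of FLAG-SNAP2 held 7937 and 9332 peaks in replicates 1 and 2. The others held 8426 and 9052 (FLAG-SNAP1), 6590 and 3628 (FLAG-SNAP3) and 5888 and 6856 (FLAG-SNAP4). For each peak the deposited fold enrichment and p-value together gave back the whole number of reads piled up at the summit and the number expected from the background, in 57709 of 57709 peaks with a relative tolerance of 0.0001 on the p-value. The genome-wide background was 1.30 and 1.47 expected reads in the FLAG-SNAP2 libraries, against 0.884 and 0.966 with FLAG-SNAP1, 0.920 and 0.655 with FLAG-SNAP3, and 1.47 and 1.39 with FLAG-SNAP4. This number grows with the reads of a library and with the fragment length. The background was thus higher with FLAG-SNAP2 and FLAG-SNAP4, and lowest in replicate 2 of FLAG-SNAP3, which also had the fewest peaks. The number of peaks did not follow it throughout, since FLAG-SNAP1 had a lower background than FLAG-SNAP4 and more peaks. The part of this unequal background, and of depth, in the number of FLAG-SNAP2-only regions was not tested.

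FLAG-SNAP2 had fewer sites of its own than FLAG-SNAP1 and more than the other TFs. The same rule gave 682 regions for FLAG-SNAP1, which were 3.16% of all regions, 202 for FLAG-SNAP3 (0.936%) and 114 for FLAG-SNAP4 (0.528%). A region can also be held by 1 FLAG-SNAP2 library and 1 library of another TF and by no more. There were 12 such pairs of libraries, and they held between 19 and 225 regions with a median of 109. The 2 FLAG-SNAP2 replicates thus shared more regions with each other alone than either shared alone with any library of another TF. The highest of these other pairs were FLAG-SNAP2 replicate 2 with FLAG-SNAP1 replicate 2, at 225 regions, and with FLAG-SNAP1 replicate 1, at 209 regions.

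**Figure D1:**
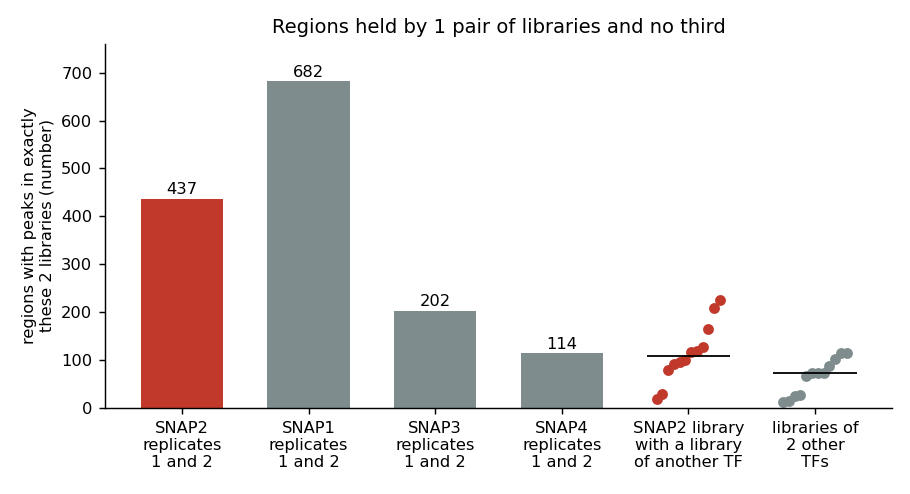
Number of regions with peaks in exactly 2 libraries. Bars give the pair of replicates of each TF, points each pair of libraries from different TFs, and black lines the medians. The FLAG-SNAP2 pair held 437 regions, above all 12 pairs of a FLAG-SNAP2 library with a library of another TF, whose median was 109.

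Most regions with a peak in 1 FLAG-SNAP2 library and in no other TF were not shared between its replicates. Replicate 1 alone held 1434 regions and replicate 2 alone held 2238, against the 437 that both held. Dropping the demand for 1 of the FLAG-SNAP2 libraries therefore raised the count, to 2687 without replicate 1 and 1906 without replicate 2. The count also rested on which other TFs were looked at, and rose to 919 without both FLAG-SNAP1 libraries and to 686 without both FLAG-SNAP4 libraries. Without both FLAG-SNAP3 libraries it was 526.

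The next regions outward, with peaks of both FLAG-SNAP2 replicates and of exactly 1 other library, numbered 459. The other library was FLAG-SNAP1 in 98 and 131 of them for its replicates 1 and 2, FLAG-SNAP3 in 46 and 12, and FLAG-SNAP4 in 58 and 114. A further 249 regions had peaks of both replicates of FLAG-SNAP2 and of FLAG-SNAP1 and no other. The corresponding numbers were 72 with FLAG-SNAP4 and 30 with FLAG-SNAP3. FLAG-SNAP1 was thus the TF with which FLAG-SNAP2 most often shared a region that it shared with no other, although the libraries of FLAG-SNAP1 also held more peaks than those of FLAG-SNAP3 and FLAG-SNAP4.

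FLAG-SNAP2-only regions were weak beside the regions that FLAG-SNAP2 shared with all other TFs. Fold enrichment, the summit pileup over the background with 1 added to each, was 2.08 to 6.30 in replicate 1 (median 4.16) and 2.18 to 8.11 in replicate 2 (median 4.03). The mean of the 2 replicates had a median of 4.12 with quartiles of 3.74 and 4.52. Over the 4806 regions of both replicates, this median increased with the number of other libraries that had a peak, from 4.12 with 0 and 4.14 with 1 to 4.74 with 5 and 6.10 with 6. The difference between regions of FLAG-SNAP2 alone and those with 1 other library was within the spread of 0.095 (SD, n = 2) between the medians of the FLAG-SNAP2 replicates. Within a library, the median of the FLAG-SNAP2-only peaks lay at percentiles 44.2 and 45.3 of all peaks. With the other TFs, the median of the peaks of 1 TF alone lay at percentiles 41.8 and 44.0 (FLAG-SNAP1), 44.0 and 35.9 (FLAG-SNAP3) and 50.02 and 35.3 (FLAG-SNAP4).

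**Figure D2:**
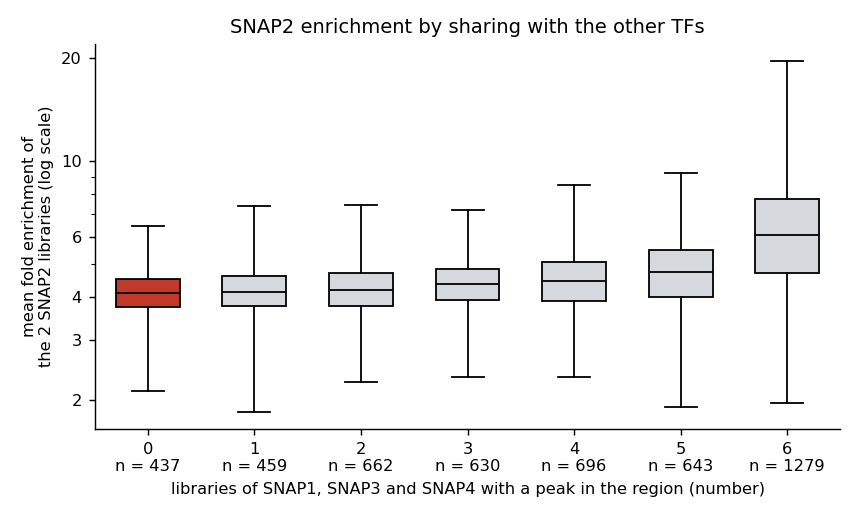
Mean fold enrichment of the 2 FLAG-SNAP2 libraries (log axis) in regions with peaks of both, by the number of libraries of the other TFs with a peak there. Boxes give quartiles and median, whiskers the whole range, and n the number of regions. FLAG-SNAP2-only regions (0 other libraries) had a median of 4.12 and reached 6.45, whereas regions with all 6 others had a median of 6.10 and reached 19.5.

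Read the other way, the share of FLAG-SNAP2-only regions dropped as FLAG-SNAP2 enrichment increased. They were 13.9% of the 445 regions with a mean fold enrichment of up to 3.5 and 13.8% of the 1910 regions from 3.5 to 4.5. They were 10.6% of the 794 regions from 4.5 to 5 and 3.20% of the 812 from 5 to 6. Only 1 of the 845 regions above 6 was a FLAG-SNAP2-only region. No FLAG-SNAP2-only region was among the highest 10% of peaks of replicate 1, and 3 were among those of replicate 2. The strongest of them ranked 804th of 7937 peaks in replicate 1 and 294th of 9332 in replicate 2.

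The reads behind these peaks were few, as they were at the peaks of each other TF alone. The summit held 7 to 40 reads in replicate 1 (median 13, quartiles 11 and 16) and 8 to 45 reads in replicate 2 (median 14, quartiles 12 and 18). A count of 13 has an exact 95% Poisson interval of 6.92 to 22.2, and a count of 14 one of 7.65 to 23.5. The background expected at the same places had medians of 2.36 and 2.75 reads. Regions with peaks of all 6 other libraries had medians of 27 and 30 reads in the same 2 libraries, and all peaks of these libraries had medians of 15 and 16. Peaks in regions of 1 other TF alone had medians of 12 and 13 (FLAG-SNAP1), 13 and 10 (FLAG-SNAP3) and 16 and 15 (FLAG-SNAP4). Fewer than 20 reads in both replicates were counted in 358 of the 437 regions, and 20 or more in both in 38. The smallest number of reads at the summit of any deposited peak was 7 in the FLAG-SNAP2 libraries, against 6 in both FLAG-SNAP1 libraries, 6 and 5 with FLAG-SNAP3, and 7 in both FLAG-SNAP4 libraries. The FLAG-SNAP2-only peaks thus lay not far above the number at which a peak was called at all. These intervals cover counting error only.

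Fold enrichment was higher in replicate 1 at 262 regions and in replicate 2 at 175. The 2 values lay within 1.5-fold of each other at 424 regions, with a median ratio of 1.13 and a highest ratio of 1.69. The 95% intervals of reads over expected reads overlapped between replicates at all 437 regions. With few reads and a peak required in both replicates, this overlap is a description and no measure of agreement. Across the 437 regions, fold enrichment of the replicates had a Pearson correlation of 0.427, against 0.862 across the 4806 regions of both replicates, whose range is wider. These are correlations across regions of the same 2 libraries, which are not independent replicates.

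**Figure D3:**
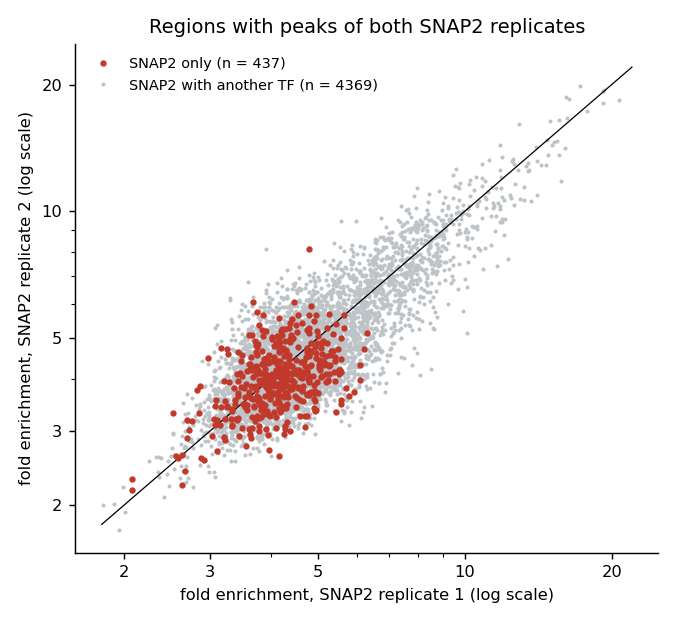
Fold enrichment of regions with peaks of both FLAG-SNAP2 replicates, replicate 1 against replicate 2 (both axes log). Red points are the 437 FLAG-SNAP2-only regions, grey points the 4369 regions with a peak of another TF, and the line marks equal values. The red points sit at the low end, up to 6.30 in replicate 1 and 8.11 in replicate 2.

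The called q-values had a median −log10 of 3.67 in replicate 1 and 3.75 in replicate 2. The lowest values were 1.53 and 1.43 in the same order, so some regions lay close to the threshold but most did not. A q-value of 0.01 or less was reached in both replicates by 410 regions and in at least 1 replicate by all 437. A q-value of 0.0001 or less was reached in both replicates by 95 regions (21.7%) and in at least 1 by 276. Just inside the rule lay the region in LOC100816385 (chr1:5514813-5515347), whose weaker q had a −log10 of 1.43, and those at LOC100792360 (1.45), LOC111064653 (1.53), LOC100808212 (1.58) and LOC100793171 (1.68). Just outside lay regions lost to a single weak peak of another TF. The weakest was a FLAG-SNAP1 replicate 1 peak with a −log10 q of 1.36 at LOC106796096 (chr15:14698934-14699519), where FLAG-SNAP2 had values of 4.53 and 3.13. Then came LOC100803595 (FLAG-SNAP1 replicate 1, 1.39), LOC102660514 (FLAG-SNAP3 replicate 2, 1.44), LOC100815554 (FLAG-SNAP4 replicate 1, 1.75) and LOC100802282 (FLAG-SNAP4 replicate 1, 1.77).

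In shape, the regions were short beside those in all 8 libraries, and their summits fell close together. The merged region was 222 to 1121 bp wide with a median of 374 bp, against 663 bp for regions with peaks in all 8 libraries, a width that merging more peaks also sets. Regions of FLAG-SNAP1, FLAG-SNAP3 and FLAG-SNAP4 alone had medians of 407, 331.5 and 336 bp, and all regions together 349 bp, so the width was not particular to FLAG-SNAP2. The FLAG-SNAP2 peaks themselves had median widths of 273 and 300 bp at FLAG-SNAP2-only regions and of 464 and 501 bp at regions with peaks in all 8 libraries. The summits of the replicates lay a median of 78 bp apart, and within 200 bp at 374 regions (85.6%). The 2 peaks overlapped by at least 50% of the shorter at 402 regions. The widest regions lay on scaffold_551 (1121 bp), in LOC100790354 (1101 bp) and beside LOC100784202 (1075 bp).

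By the rule, no peak of another TF overlapped these regions, and the distance to the nearest one is a description. It was not measured for regions of the other TFs, so it does not set FLAG-SNAP2 apart. The distance to the nearest peak of another TF had a median of 10446.5 bp with quartiles of 2980.75 and 24170.2 bp. Such a peak lay within 200 bp at 22 regions (5.03%), within 500 bp at 45 and within 1 kb at 61 (13.96%). Merging peaks up to 200 bp apart left 428 regions and merging up to 1000 bp left 405, of which 414 and 374 overlapped the original 437. Few of the 437 regions were thus set apart from a peak of another TF by a short gap.

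The FLAG-SNAP2-only regions were spread over all 20 chromosomes, with 1 region on a scaffold. Chromosome 16 held the fewest, 8, and chromosome 13 the most, 37, which also had the most regions of both FLAG-SNAP2 replicates, 374. As a share of those regions, FLAG-SNAP2-only regions were between 5.48% on chromosome 16 and 11.1% on chromosome 4. The exact 95% binomial interval held the genome-wide 9.09% on every chromosome. Neighbouring regions lay a median of 996104 bp apart, 29 neighbouring pairs lay within 100 kb and 6 within 10 kb. Whether this spacing is closer than for other regions was not tested. The closest pair lay in LOC100815070 on chromosome 13, at 25661755-25662075 and 25662398-25662686, with 322 bp between them. A further pair lay in LOC111064653 on chromosome 7, with 598 bp between them. No other gene was assigned more than 1 region.

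Positions were measured from the midpoint of a region to the nearest end of a gene, because the annotation used gives no strand. Of the 436 regions on chromosomes, 148 (33.9%, exact 95% interval 29.5 to 38.6%) lay inside a gene and 133 (30.5%, 26.2 to 35.1%) lay outside genes within 1 kb of a gene end. Another 38 lay between 1 and 2 kb, and 117 (26.8%, 22.7 to 31.3%) lay more than 2 kb from every gene, 18 of them beyond 10 kb and the farthest at 31424 bp. Most of those near genes sat close to a gene end. Of the regions inside genes, 111 had their midpoint within 500 bp of the end of any annotated gene. A further 18 of them lay more than 1 kb from every gene end. Of those outside genes, 104 lay within 500 bp.

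**Figure D4:**
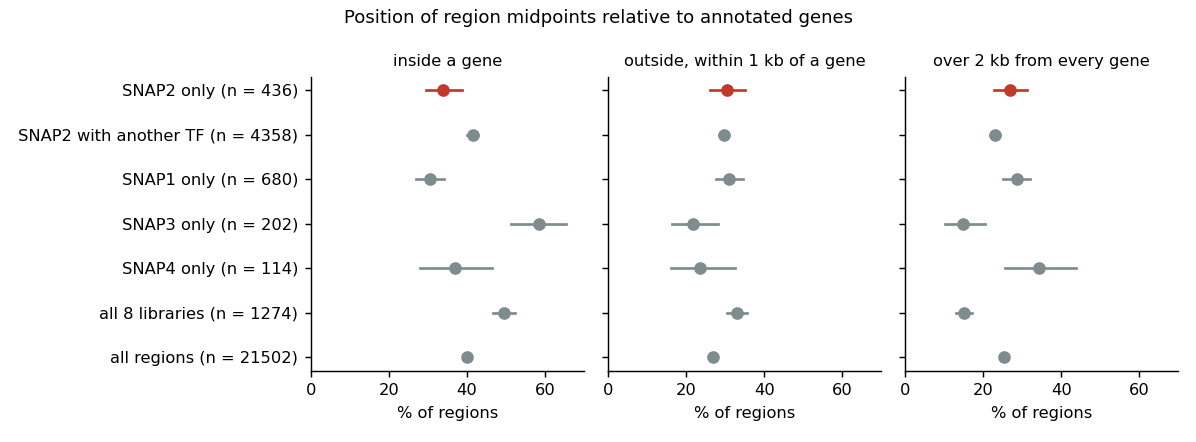
Share of regions with the midpoint inside a gene (left), outside genes within 1 kb of a gene end (middle) and more than 2 kb from every gene (right), in percent, with exact 95% binomial intervals. FLAG-SNAP2-only regions, in red, lay inside genes in 33.9%, against 41.4% of regions FLAG-SNAP2 shared with another TF and 58.4% of FLAG-SNAP3-only regions.

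This placement was close to that of FLAG-SNAP1-only regions and unlike that of FLAG-SNAP3-only regions. Inside genes lay 33.9% of FLAG-SNAP2-only regions, against 30.4% of FLAG-SNAP1-only, 36.8% of FLAG-SNAP4-only and 58.4% of FLAG-SNAP3-only regions, and 40.0% of all regions. More than 2 kb from every gene lay 26.8% of FLAG-SNAP2-only regions, against 28.5%, 34.2% and 14.9% in the same order of TFs and 25.2% of all regions. Among regions of both FLAG-SNAP2 replicates, the share inside genes was 33.9% with no other library and 49.5% with all 6. Regions are not replicates of a TF, so the libraries were compared next.

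For each library, the peaks that overlapped no peak of another TF were taken, whether or not the replicate shared them. Of these, 35.2% and 32.2% lay inside genes in the FLAG-SNAP2 libraries, against 34.2% and 35.0% (FLAG-SNAP1), 60.1% and 54.4% (FLAG-SNAP3) and 43.0% and 36.6% (FLAG-SNAP4). The FLAG-SNAP2 values lay close to those of FLAG-SNAP1 and below those of FLAG-SNAP3 and FLAG-SNAP4. The mean was 33.7% ± 2.12 (SD, n = 2) for FLAG-SNAP2 and 43.9% ± 11.0 (SD, n = 6) for the others, a difference of −10.2 percentage points. It did not pass a two-sided exact permutation test over the 28 ways to choose 2 of the 8 libraries (p = 0.179, 0.580 after Benjamini-Hochberg adjustment over 5 measures). The smallest p this test allows is 0.0357, and the 6 other libraries are 3 pairs rather than 6 independent samples. At that p, 1 measure alone would still not pass after adjustment over the 5 measures.

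The other 4 measures of the libraries did not pass either. Peaks outside genes within 1 kb of a gene end were 28.2% ± 0.583 in FLAG-SNAP2 and 23.7% ± 6.84 in the other libraries (exact permutation p = 0.429, adjusted 0.580). Peaks more than 2 kb from every gene were 28.1% ± 1.14 and 24.98% ± 3.79 in the same order (exact permutation p = 0.321, adjusted 0.580). The median width of these peaks was 249 and 270 bp in the FLAG-SNAP2 libraries, against 218 to 302 bp in the others (exact permutation p = 0.714, adjusted 0.714). Of the peaks assigned to a gene, 92.2% ± 0.0674 had a protein-coding gene in FLAG-SNAP2 and 92.5% ± 0.489 in the others (exact permutation p = 0.464, adjusted 0.580). None of the 5 had an unadjusted p below 0.05.

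Position moved with the background. Where the background was high, more of the regions lay inside genes and the fold enrichment was lower. The FLAG-SNAP2-only regions were split by expected reads into 4 sets. In the lowest set (1.38 to 1.98 reads, n = 110), 22.7% lay inside genes and the median mean fold enrichment was 4.45. In the highest set (3.45 to 18.5 reads, n = 109), 51.9% lay inside genes and the median was 3.51, although the median reads were higher, at 18 and 20 against 11 and 11. Expected reads are part of the divisor of the fold enrichment, and a peak at a low background needs a higher fold to be called. The fold and the reads of these sets were thus largely fixed by the split and by the calling of peaks, whereas positions were used in neither. By the same measure, a low fold enrichment at a region inside a gene can stand on more reads than a high one far from genes.

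Regions shared with another TF were next set beside FLAG-SNAP2-only regions of the same strength, a comparison added after the data had been seen. Up to a mean fold enrichment of 5, 35.2% of 409 FLAG-SNAP2-only regions lay inside genes (exact 95% interval 30.6 to 40.1%), against 43.7% of 2734 shared regions (41.9 to 45.6%). More than 2 kb from every gene lay 25.9% (21.7 to 30.5%) and 23.2% (21.7 to 24.9%). The smaller share inside genes was thus also seen among weak regions. The 2 sets come from the same 2 libraries, so the intervals describe counts of regions and are not a test of the TF.

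Each region was next given the gene that held its midpoint or, outside genes, the gene whose end was nearest, if it lay within 2 kb. Of the 437 regions, 319 were assigned to 317 genes, which were 0.541% of the 58643 annotated genes, and 299 of these were protein-coding (0.639% of 46816). Protein-coding genes took 301 of the 319 regions (94.4%), against 76.5% of the assigned regions that FLAG-SNAP2 shared with another TF and 52.9% of those with peaks in all 8 libraries. The gap lay at tRNA genes, which had 1 of the FLAG-SNAP2-only regions (0.313%), against 604 of the shared ones (18.0%) and 449 of those in all 8 libraries (41.5%). With a mean fold enrichment of up to 5 only, tRNA genes took 0.330% of assigned FLAG-SNAP2-only regions and 2.24% of shared ones, and protein-coding genes 94.4% and 92.7%. From 5 to 7, tRNA genes took 0 of 16 assigned FLAG-SNAP2-only regions, which allows a share of up to 18.8%, and 243 of 836 shared ones (29.1%), and protein-coding genes 93.8% and 64.1%. For comparison, protein-coding genes took 92.4% of assigned FLAG-SNAP1-only regions, 93.6% of FLAG-SNAP3-only regions and 90.7% of FLAG-SNAP4-only regions, and 89.4% over all regions. At tRNA genes were 0.206% of FLAG-SNAP1-only regions, 0 of 172 FLAG-SNAP3-only regions (up to 1.74%) and 1.33% of FLAG-SNAP4-only regions, against 3.90% of all regions.

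Genes other than protein-coding ones were few. FLAG-SNAP2-only regions were assigned to 8 lncRNA genes, 5 pseudogenes, 2 transcribed pseudogenes and 1 snoRNA gene. The strongest at lncRNA genes lay beside LOC102662631 (mean fold enrichment 5.01), LOC121173110 (4.77) and LOC121172764 (4.72). The strongest at pseudogenes lay in LOC100782966 (4.74), beside LOC100782795 (4.57) and in LOC100812878 (3.62). The single tRNA gene was TRNAR-CCG, an arginine tRNA, with a region at chr6:5152205-5152613 whose midpoint lay 6 bp outside the gene. It had 25 and 34 reads in the 2 FLAG-SNAP2 replicates where 4.93 and 6.06 were expected. Its fold enrichment was 4.38 and 4.96, and its mean −log10 q of 9.26 was the highest of all 437 regions. The nearest peak of another TF lay 3329 bp away. Genes for tRNAs come in near-identical copies, so reads there may be hard to place and this region is uncertain.

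Many of these genes had other TFs nearby. Of the 317 genes, 95 (29.97%) were also assigned a region with a peak of another TF. A further region of FLAG-SNAP2 and no other TF was assigned to 8, and 214 (67.5%) were assigned FLAG-SNAP2-only regions alone. Each region went to 1 gene, so another TF nearby was missed where its region went to a neighbouring gene. LOC100500379 was counted among the 214, although a peak of FLAG-SNAP4 replicate 2 lay 59 bp from its region. A region with peaks of both FLAG-SNAP1 replicates lay at 35 of the genes, both of FLAG-SNAP4 at 24 and both of FLAG-SNAP3 at 11. The share of genes with another TF was 33.1% of 483 genes with a FLAG-SNAP1-only region, 36.7% of 169 with a FLAG-SNAP3-only region and 51.4% of 74 with a FLAG-SNAP4-only region. A site of FLAG-SNAP2 alone was thus not always a gene of FLAG-SNAP2 alone.

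The region with the highest mean fold enrichment lay far from genes, at chr14:38369874-38370213, 5469 bp from the nearest gene, LOC102664790. It had 10 and 19 reads in replicates 1 and 2 against 1.30 and 1.47 expected, and fold enrichments of 4.79 and 8.11. This ratio between replicates was the highest of the 437 regions. The nearest peak of another TF was 230455 bp away. Next came a region 169 bp beside LOC100817911 on chromosome 6 (6.30 and 5.15), one 5349 bp from LOC100800163 on chromosome 8 (5.66 and 5.68), one beside the annexin gene ANN11 (5.26 and 5.70) and one inside LOC100817621 on chromosome 9 (5.66 and 5.27). The 5 strongest regions thus had 10 to 19 reads at their summits in either replicate. The region with the most reads, 40 and 42, lay inside LOC100819730 on chromosome 15 and was the second lowest in fold enrichment (2.08 and 2.31), since 18.7 and 17.6 reads were expected there.

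Of the 317 genes, 27 had a symbol other than a locus number, and these are described by what they encode. Of their regions, 11 lay inside the gene, 9 within 1 kb and 7 between 1 and 2 kb. Of the 27 regions, 26 remained at a q-value of 0.01, 22 when peaks up to 1000 bp apart were merged, 20 with summits and 100 bp on each side, 4 at a q-value of 0.0001 (ANN11, MMT1, SCA1 and TRNAR-CCG) and 2 with equal numbers of peaks (ANN11 and MMT1). With summits, the regions of NRP-B, NRT2, SCA1, SDP1-3, SGF14I, SGT2 and WRKY51 were lost, and SCA1, SDP1-3 and SGT2 also when the peaks of the replicates had to overlap more. Their mean fold enrichment had a median of 3.99, near that of all 437 regions. No other region of any TF was assigned to 15 of the 27 genes. In all 27, the lower bound of the counting interval was above the expected reads in both replicates. This follows from the peaks having been called, and is not a finding of its own.

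**Figure D5:**
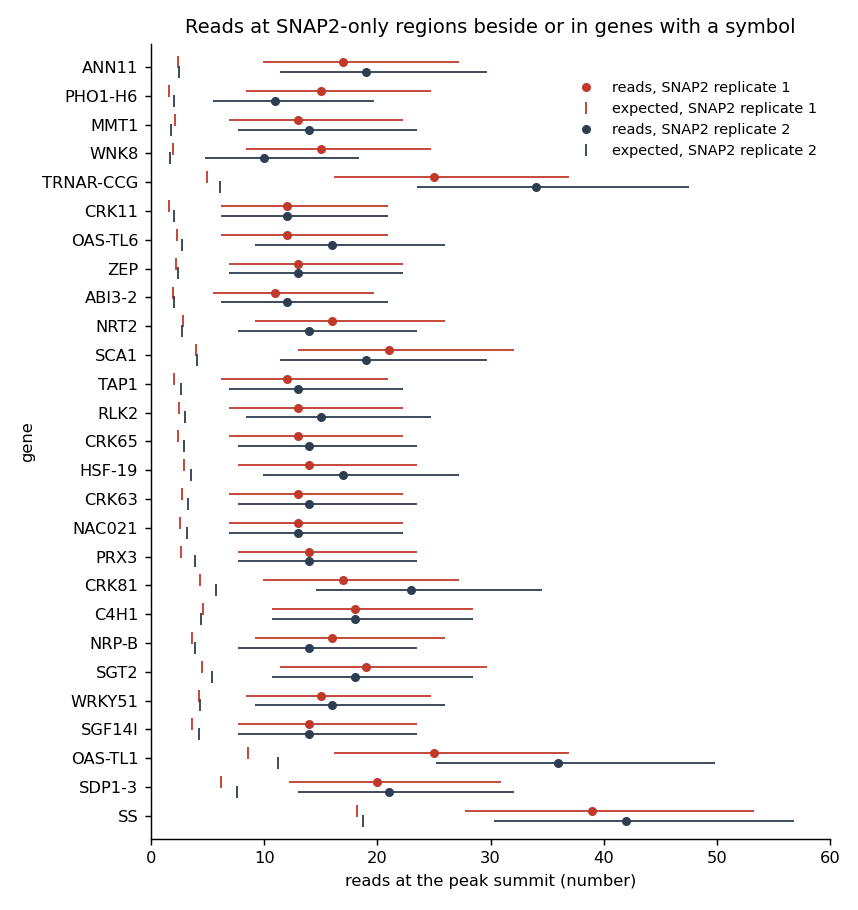
Reads at the summit in FLAG-SNAP2 replicates 1 (red) and 2 (dark blue) for the 27 regions assigned to genes with a symbol, ordered by mean fold enrichment. Points are reads, lines exact 95% Poisson intervals and ticks the reads expected from the background. Reads lay between 10 and 42, and at the SS gene 39 and 42 reads stood against 18.2 and 18.8 expected.

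The genes are given below by what they encode, and no grouping was tested. ANN11 encodes an annexin, a protein that binds membranes in the presence of calcium. Its region at chr15:45653924-45654409 lay 1922 bp outside the gene, with 17 and 19 reads against 2.42 and 2.51 expected and fold enrichments of 5.26 and 5.70. Of the 27 regions, it was the only one that remained under all 20 alternatives that changed the peaks or libraries used. Leaving out libraries could not remove a region, so the other definitions of peaks and overlap decided this. The region lay too far from ANN11 to be assigned to it within 1 kb. SCA1 encodes a calcium-transporting ATPase, and its region inside the gene at chr1:53932368-53933022 had 21 and 19 reads and fold enrichments of 4.41 and 3.97. Other regions at SCA1 had peaks of FLAG-SNAP3 replicate 1, FLAG-SNAP4 replicate 1 and FLAG-SNAP2 replicate 2. PHO1-H6, of the PHO1 family of phosphate exporters, had a region 1116 bp outside the gene with fold enrichments of 6.08 and 3.97, more than 1.5-fold apart, and 15 and 11 reads.

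Among genes of nitrogen and sulfur nutrition, NRT2 encodes a high-affinity nitrate transporter. Its region at chr13:41199513-41200098 lay 1679 bp outside the gene and had 16 and 14 reads, with fold enrichments of 4.42 and 3.97. It was lost at a q-value of 0.0001, with equal numbers of peaks, and when summits with 100 bp on each side replaced the peaks. Within 2 kb of NRT2 there were 2 further regions with peaks of both FLAG-SNAP1 replicates, FLAG-SNAP2 replicate 2, FLAG-SNAP3 replicate 1 and FLAG-SNAP4 replicate 1, so the gene was not one of FLAG-SNAP2 alone. OAS-TL6 and OAS-TL1 encode O-acetylserine (thiol) lyases, which make cysteine from sulfide. The region of OAS-TL6 lay 38 bp outside the gene and had 12 and 16 reads with fold enrichments of 3.97 and 4.56. That of OAS-TL1 lay inside the gene with more reads, 25 and 36, but lower fold enrichments, 2.72 and 3.02, over 8.57 and 11.3 expected reads. Neither gene was assigned a region of another TF, although a peak of FLAG-SNAP1 replicate 2 lay 2231 bp from the region of OAS-TL1. They were 2 of 6 annotated genes with an OAS-TL symbol, a list made after the data had been seen, beside 1.11% of all protein-coding genes with a symbol.

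Several genes were of abscisic acid, stress and cell death. ZEP encodes zeaxanthin epoxidase, which acts on precursors of abscisic acid, and ABI3-2 a B3-domain TF of abscisic acid signalling. The region of ZEP lay 1612 bp outside the gene with 13 reads in each replicate and fold enrichments of 4.33 and 4.15. That of ABI3-2 lay inside the gene, 337 bp from the nearest end of any gene, with 11 and 12 reads and fold enrichments of 4.14 and 4.304. Neither gene was assigned any other region. NRP-B encodes an asparagine-rich protein of stress-induced cell death in soybean, and its region 293 bp outside the gene had 16 and 14 reads with fold enrichments of 3.67 and 3.06. HSF-19, a heat shock TF, had a region inside the gene with 14 and 17 reads, and a neighbouring region with peaks of 5 libraries, among them both of FLAG-SNAP1.

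Genes of TF families were counted by symbol. Of 41 genes with a NAC symbol, 22 had a region of any TF, 9 had one with both FLAG-SNAP2 replicates, and NAC021 alone had a FLAG-SNAP2-only region. It lay across the end of the gene at chr4:48447108-48447502, with 13 reads in each replicate and fold enrichments of 3.92 and 3.32, and the gene also had a peak of FLAG-SNAP3 replicate 1. Of 61 WRKY genes, 45 had a region of any TF, 18 one with both FLAG-SNAP2 replicates, and WRKY51 alone a FLAG-SNAP2-only region, with 15 and 16 reads and fold enrichments of 3.06 and 3.20. Of 37 heat shock factor genes, 17 had a region of any TF, 11 one with both FLAG-SNAP2 replicates, and HSF-19 alone a FLAG-SNAP2-only region. None of 94 bZIP, 105 MYB, 21 ERF and 6 bHLH genes had one, although 14, 8, 4 and 1 of them had a region with both FLAG-SNAP2 replicates. The share was 0.639% over all protein-coding genes and 1.11% over the 2346 with a symbol, and counts of 0 and 1 in lists of these sizes do not set any family apart.

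Of 85 genes with a CRK symbol, for cysteine-rich receptor-like kinases, 4 (4.71%) had a FLAG-SNAP2-only region, beside 1.11% of protein-coding genes with a symbol, and 7 had a region with both FLAG-SNAP2 replicates. CRK11 had 12 reads in each replicate and fold enrichments of 5.02 and 4.24, in a region 1444 bp outside the gene. CRK65 had 13 and 14 reads (4.17 and 3.82), CRK63 had 13 and 14 (3.77 and 3.54) and CRK81 had 17 and 23 (3.38 and 3.56). Of these, CRK11 also had peaks of FLAG-SNAP1 replicate 1 and FLAG-SNAP3 replicate 2 nearby, whereas CRK63, CRK65 and CRK81 had no other region. CRK65 and CRK81 lie near each other on chromosome 20, with regions at 37670825-37671191 and 37849837-37850196. The list was made by symbol after the data had been seen, and receptor-kinase genes of this kind lie in arrays of close copies. RLK2, another receptor-like kinase gene, had 13 and 15 reads (4.04 and 3.96), and WNK8, a kinase gene of the WNK family, had 15 and 10 (5.51 and 4.09).

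The next genes were named after their values had been seen. SS encodes a sucrose synthase, the main enzyme of sucrose breakdown in nodules, and carries the synonym N-100. Its region at chr13:21797330-21797665, inside the gene, had the lowest mean fold enrichment of all 437, with 2.08 and 2.18, yet 39 and 42 reads. Beside it lay 2 further regions of the gene with peaks of both libraries of FLAG-SNAP2, FLAG-SNAP1 and FLAG-SNAP4, the nearest peak of another TF being 537 bp away. C4H1, for cinnamate 4-hydroxylase of phenylpropanoid synthesis, had 18 reads in each replicate (3.38 and 3.48), 79 bp outside the gene. SGT2, for a glycosyltransferase of soyasaponin synthesis, had 19 and 18 reads (3.63 and 2.96), but its 2 peaks overlapped by 6.90% of the shorter and their summits lay 252 bp apart. PRX3, a peroxidase gene, had 14 reads in each replicate (4.11 and 3.06), and SDP1-3, for a lipase of storage oil, had 20 and 21 (2.91 and 2.56).

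The remaining genes with a symbol were MMT1, TAP1 and the 14-3-3 gene SGF14I. MMT1 had 13 and 14 reads (mean fold enrichment 4.93), with a peak of FLAG-SNAP1 replicate 2 only 76 bp away. TAP1 had 12 and 13 reads (4.24 and 3.84), with peaks of both FLAG-SNAP1 replicates in a further region and the nearest 337 bp away, and SGF14I had 14 reads in each (3.22 and 2.86). None of the 5 leghemoglobin genes, 25 nodulin genes, 15 ammonium transporter genes, 5 glutamine or asparagine synthetase genes, 6 autophagy genes and 6 cysteine protease genes recognised by symbol had a FLAG-SNAP2-only region. Beside a share of 0.639% of all protein-coding genes, a count of 0 in lists this short says nothing particular of these genes. Of these lists, 1 nodulin and 1 ammonium transporter gene had a region with both FLAG-SNAP2 replicates. The SS gene, with the synonym N-100 and a FLAG-SNAP2-only region, was not among the 25 nodulin genes recognised by symbol.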

How the data were processed

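ChIP-seq peak lists of 8 libraries, 2 for each of 4 FLAG-tagged TFs in soybean hairy roots with nodules, were used. Trimming used Trim Galore 0.6.6, alignment Bowtie2 2.3.4.3 with the Wm82 a4.v1 build, and pairs mapping to 1 place were retained by the authors. MACS2 2.2.7.1 was run per library, never on pooled replicates, with a q-value limit of 0.05. A control library and removal of duplicate reads are not given in the sources used here. Duplicates would inflate the reads at a summit. The deposited columns are position, summit, a score, fold enrichment (a ratio), −log10 p-value and −log10 q-value.

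Reads (k) and expected reads at a summit were solved from the deposited fold, taken as k plus 1 over expected plus 1, and the deposited p-value, taken as the Poisson chance of more than k. Whether MACS2 counted reads or read pairs is not given in the sources used here, and "reads" stands for either.

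RefSeq genes of assembly Glycine_max_v4.0 were used, without strand, products or sequence. Its coordinates are not printed. That it shares coordinates with the peaks is seen from tRNA genes, of which 605 of 709 had a region of both FLAG-SNAP2 replicates. A region was assigned by its midpoint to the nearest gene within 2 kb. Where the strongest peak of a library in a region was needed, the one with the highest fold was taken.

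The members and lists were chosen with earlier results of these data known. The genes named are the 15 strongest regions at protein-coding genes with a symbol, in place of a known product, the 5 strongest of all, the 3 strongest of each gene list, genes with 2 regions, the 3 widest, and the 5 just inside and just outside the rule. PRX3, CRK81, C4H1, NRP-B, SGT2, SDP1-3 and SS were named after their values were seen, as were the regions of the most reads. Lists were made by symbol, and no gene matched the list of protein phosphatases 2C. The planned motif search and lists by product were not run.

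Libraries were compared by exact permutation with Benjamini-Hochberg adjustment, after the steps had been tested on simulated data. Alternatives were other q-values, the same number of strongest peaks in each library, other definitions of overlap, leaving out each library or TF, other gene distances, summits and protein-coding genes alone. Python 3.11.15, numpy 2.4.6, pandas 2.3.3, SciPy 1.17.1 and matplotlib 3.10.9 were used.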

Additional observations from a re-analysis of the deposited data

How the results depend on the processing

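The number of FLAG-SNAP2-only regions depended on the threshold for peaks and on the libraries counted. With a q-value of 0.0001 or less in every library there were 233 regions at 170 genes with a median mean fold enrichment of 4.70, and with that limit in the FLAG-SNAP2 libraries alone there were 95 regions at 69 genes (median 4.72, 29.5% inside genes). With the same number of strongest peaks in each library there were 132 regions at 84 genes (median 4.95), of which 57 overlapped the original 437, and 21.2% lay inside genes and 36.4% more than 2 kb from every gene. Leaving out FLAG-SNAP1 gave 919 regions at 629 genes, and leaving out FLAG-SNAP4 gave 686 regions at 505 genes with 39.6% inside genes. Leaving out 1 library at a time gave 450 to 2687 regions at 324 to 1868 genes, and the highest values came from dropping a FLAG-SNAP2 replicate. A q-value of 0.01, the 4 other definitions of overlap, the chromosomes alone and the other gene distances left the count of regions or genes within 1.5 times. Of the 437 regions, 297 (68.0%) remained under a q-value of 0.01 and all 4 other definitions of overlap, and 32 remained under all 20 alternatives that changed the peaks or libraries used. Leaving out libraries could remove none of the 437. The other definitions of peaks and overlap alone left the same number, 32.

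No comparison of the libraries passed the adjusted threshold under any alternative, but the block and the runs without a FLAG-SNAP2 replicate could not have passed, since their smallest p-values by exact permutation are 0.0625 and 0.143. Replicate numbers did not pair the libraries, since those of the same number overlapped no more (mean Jaccard index 0.299, 12 pairs of different TFs) than those of different numbers (0.301, 12 pairs). With the replicate block, in which libraries were permuted within a number, the exact permutation p of the share inside genes was 0.188 (adjusted 0.625) for the same difference of −10.2 percentage points. The search for motifs was not run. A summit of 13 reads has a 95% counting interval of 6.92 to 22.2, and reads below the threshold in the other libraries were not analysed here.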

Other observations

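The 32 FLAG-SNAP2-only regions that remained under every other definition of peaks and overlap were mostly away from gene bodies. This set was taken after the data had been seen. Of the 32 regions, 5 lay inside genes, 8 within 1 kb of a gene end, 5 between 1 and 2 kb and 14 more than 2 kb from every gene. The alternatives with stricter peaks favour high fold enrichment, which among all 437 regions went together with positions outside genes, so this placement is a description of the set. Their mean fold enrichment was 4.66 to 5.48 with a median of 4.99, on 11 to 24 reads in replicate 1 and 11 to 22 in replicate 2. The nearest peak of another TF was at least 1183 bp away, with a median distance of 13560.5 bp. Merging peaks up to 1000 bp apart had removed every region with such a peak within that distance, so the lower limit follows from the choice of the set.

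All 18 regions of this set within 2 kb of a gene were at protein-coding genes, and ANN11 was the only one of these with a symbol other than a locus number. The 3 next in mean fold enrichment lay inside LOC100817621 at chr9:2770626-2770972 (5.47), 38 bp outside LOC100808414 at chr11:18677733-18677996 (5.45) and 1543 bp outside LOC100801824 at chr18:44285964-44286366 (5.42). The one with the most reads in replicate 1 lay at chr7:40264986-40265361, 1912 bp outside LOC100801215, with 24 and 21 reads against 3.55 and 3.69 expected and fold enrichments of 5.49 and 4.70. Among those more than 2 kb from every gene was a region at chr12:36437488-36437732, 2741 bp from ALMT25, a gene of the aluminium-activated malate transporter family, which was too far to be assigned to it.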
